A study of Mus musculus with 6 samples.

Results

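Early B-lineage genes were followed in granulocyte/macrophage progenitors (GMPs), the marrow precursors of neutrophils and monocytes. The set held 10 genes, Vpreb1, Igll1, Vpreb3, Cd79a, Cd79b, Blnk, Ebf1, Pax5, Rag1 and Dntt, and its members were all probe sets annotated to exactly 1 of these genes. That gave 18 of the 45037 probe sets and 10 of the 18193 named genes of the array. The study is titled as one of blood malignancies after loss of IRF4 and IRF8, related transcription factors of blood cells. RNA was hybridised to 6 Affymetrix Mouse Genome 430 2.0 arrays, 2 per genotype, each from a mouse of the strain labelled BL6. The IRF4/8 DKO mice, which lack both factors, were a male and a female, both aged 16 weeks. The IRF8 KO mice, which lack IRF8, were a female aged 12 weeks and a male aged 22 weeks. The wild-type (WT) mice were a male aged 12 weeks and a female aged 19 weeks. The sort of all 3 genotypes took marrow cells with Kit, CD34 and high Fc gamma receptors II and III, and left out those with IL-7R, Sca1 or markers of mature lineages. No source used here says how the alleles were made.

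In a developing B cell, the proteins of Vpreb1 and Igll1 form the surrogate light chain, which pairs with the immunoglobulin heavy chain and with the signalling chains encoded by Cd79a and Cd79b to make the pre-B cell receptor. The adaptor protein of Blnk carries the signal onward. The transcription factors EBF1 and PAX5 set up and maintain the B-cell programme, RAG1 cuts DNA for V(D)J recombination, and terminal transferase, the product of Dntt, adds bases at the joints. IRF4 and IRF8 together are known to take mouse pre-B cells past the pre-B receptor stage and to lower surrogate light chain expression there.

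The stretches upstream of Vpreb1 and Igll1 are shown because these were the members whose arrays lay highest against WT in both knockout genotypes, and that of Dntt because its arrays lay lowest in IRF4/8 DKO against IRF8 KO. Each is the 250 bases before the gene's start from RefSeq (build GRCm38.p6), 5′ to 3′ on the gene's own strand. The windows are chr16:16869256-16869505 on the minus strand for Vpreb1, chr16:16863986-16864235 on the minus strand for Igll1 and chr19:41029025-41029274 on the plus strand for Dntt. Capitals mark matches, on either strand, to 4 motifs, CCCNNGGG (bound by EBF1), CANNTG (the E-box of E proteins), the composite element of Ets and IRF factors (EICE) and the interferon-stimulated response element (ISRE).
Vpreb1: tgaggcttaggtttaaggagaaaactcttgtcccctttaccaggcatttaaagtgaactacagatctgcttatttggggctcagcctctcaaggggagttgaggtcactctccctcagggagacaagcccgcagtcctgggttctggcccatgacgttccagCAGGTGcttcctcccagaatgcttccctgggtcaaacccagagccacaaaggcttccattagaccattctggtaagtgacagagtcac
Igll1: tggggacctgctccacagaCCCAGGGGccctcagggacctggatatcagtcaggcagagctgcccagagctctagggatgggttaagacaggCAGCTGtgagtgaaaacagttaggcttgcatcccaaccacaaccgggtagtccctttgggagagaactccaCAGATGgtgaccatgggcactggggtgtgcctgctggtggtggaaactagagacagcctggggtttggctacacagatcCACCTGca
Dntt: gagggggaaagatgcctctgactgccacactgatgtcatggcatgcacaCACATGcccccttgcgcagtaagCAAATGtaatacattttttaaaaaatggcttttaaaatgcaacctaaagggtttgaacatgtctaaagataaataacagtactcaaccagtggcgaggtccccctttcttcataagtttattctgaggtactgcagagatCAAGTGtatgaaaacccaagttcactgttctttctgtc

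The Vpreb1 window held 1 E-box match, the Igll1 window 1 EBF1 match and 3 E-box matches, and the Dntt window 3 E-box matches. No match printed above overlapped another, although the last 2 of these motifs can share bases. RefSeq windows were found for 9 of the 10 genes, and Ebf1 had a window at each of 2 starts. Over these 10 windows, 9 held an E-box match, against 66.2% of 32851 windows of the same length. The EBF1 motif was in 1 of 10 windows, against 11.8% of all. The ISRE was in 1 of 10, upstream of Ebf1, against 2.98% of all, and the EICE was in 0 of 10, against 2.3%. A match is a description of letters in this window only.

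The deposited values are intensities on a linear scale, computed by the authors. Median intensity per array was 34.1 to 37.5 in IRF4/8 DKO, 38.4 to 38.6 in IRF8 KO and 41.7 to 45.3 in WT. On the log2 scale, the 2 arrays of a genotype had r = 0.967 over all probe sets in IRF4/8 DKO, 0.9383 in IRF8 KO and 0.9772 in WT, across probe sets that are not independent replicates. Both IRF8 KO arrays correlated more closely with WT replicate 2 and with both IRF4/8 DKO arrays (0.9393 to 0.9615) than with each other. The main Irf8 probe set read 2602 to 4778 in the 4 knockout arrays and 2588 and 3052 in WT. The other, 1448452_at, read 933.7 and 1900 in IRF4/8 DKO and 1333 and 1131 in IRF8 KO, against 506.9 and 704.5 in WT. Irf4 probe set 1421173_at read 66.0 and 54.6 in IRF4/8 DKO, 13.8 and 7.66 in IRF8 KO and 32.1 and 23.5 in WT. Irf4 probe set 1421174_at read 11.8 to 33.1, with all genotypes overlapping. Whether these probe sets fall inside the deleted exons is not stated in any source used here, and they do not check the genotypes. The GMP gene Mpo read 12946 to 15417 on all arrays and Kit probe set 1452514_a_at 1680 to 2426. Cd34, a gene of the sort gate, read 590.3 and 508.7 in IRF4/8 DKO and 440.3 and 668.6 in IRF8 KO, against 1747 and 1401 in WT (limma adjusted p = 0.213 and 0.162 for the knockout genotypes in that order).

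Comparisons were made with limma on log2(value + 10.5), so a fold change is on that scale and understates the change of low genes. All 3 genotypes were fitted together, with Benjamini-Hochberg adjusted p over the 29783 probe sets kept by a filter on low values, and a threshold of 0.05. That filter asked for a value over the array's 40th percentile (19.4 to 25.9) on 2 or more arrays. The filter kept 11 of the 18 member probe sets, of 7 genes. Blnk, Pax5 and Rag1 had none, and 3 of 5 Ebf1 probe sets were left out. Each kept member probe set lay above the percentile on 5 or 6 arrays, so none was kept only through the genotype in which it was high. Errors are standard errors (SE) of the fit over 2 arrays per genotype, and n = 2 wherever an SD is given.

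**Figure D1:**
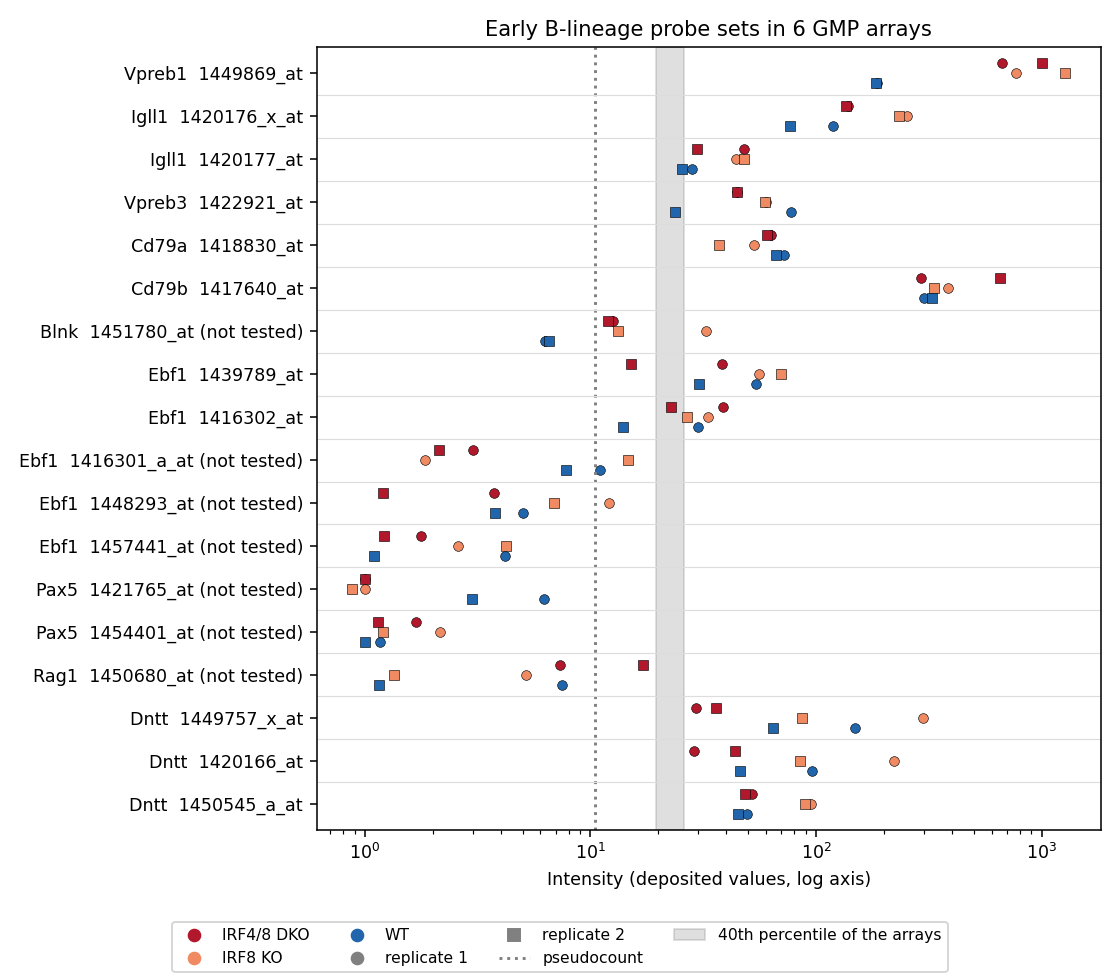
Intensity (log axis) of the 18 member probe sets on each of the 6 arrays, coloured by genotype, with circles for replicate 1 and squares for replicate 2. The dotted line is the pseudocount of 10.5 and the grey band the range of the arrays' 40th percentiles. Vpreb1 read 668 to 1275 on the 4 knockout arrays, to the right of 187 and 185 in WT, while Pax5 and Rag1 lay left of the grey band on all arrays.

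Vpreb1, the gene of the variable-like chain of the surrogate light chain, lay above WT on every knockout array. Its probe set 1449869_at read 668 and 1006 in IRF4/8 DKO and 771 and 1275 in IRF8 KO, against 187 and 185 in WT. The means were 837 ± 239 in IRF4/8 DKO, 1023 ± 357 in IRF8 KO and 186.0 ± 1.05 in WT (SD). The knockout genotypes overlapped each other and neither overlapped WT. The difference was 4.23-fold for IRF4/8 DKO (log2 fold change 2.08 ± 0.43 SE, 95% interval 1.10 to 3.06, limma adjusted p = 0.119) and 5.10-fold for IRF8 KO (2.35 ± 0.43 SE, interval 1.37 to 3.33, limma adjusted p = 0.0985). Neither passed the threshold. Among all 29783 tested probe sets, ordered from the highest log2 fold change, it stood 141st in IRF4/8 DKO and 118th in IRF8 KO. Within each sex the direction was the same, with log2 differences from WT of 1.78 between male and 2.38 between female arrays in IRF4/8 DKO, and 2.71 and 2.00 in IRF8 KO. In bulk samples, more cells that make a transcript and more transcript per cell cannot be told apart.

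Whether Vpreb1 passed varied between the fits that left out 1 array, and so did the number of calls over all probe sets. Such fits leave a genotype with a lone sample, so only their log2 fold changes are given. Without IRF8 KO replicate 1 or 2 the value for IRF4/8 DKO stayed at 2.08, since those arrays do not enter that difference. For IRF8 KO it was 2.71 and 1.99. Without WT replicate 1 or 2 it was 2.085 and 2.074 for IRF4/8 DKO and 2.356 and 2.345 for IRF8 KO. The fold changes themselves stayed between 1.79 and 2.37 in IRF4/8 DKO and between 1.99 and 2.71 in IRF8 KO over all 18 alternatives (log2).

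A further probe set, 1422416_s_at, is annotated to both Vpreb2 and Vpreb1, which are near-identical copies, so its signal cannot be given to either gene and it is not counted among the members. It read 86.6 and 83.5 in IRF4/8 DKO and 126.4 and 254.3 in IRF8 KO, against 54.2 and 44.6 in WT. Both knockout genotypes lay above WT without overlap, and IRF8 KO above IRF4/8 DKO. The log2 fold change was 0.68 ± 0.46 SE in IRF4/8 DKO (limma adjusted p = 0.752) and 1.67 ± 0.46 SE in IRF8 KO (0.18).

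Igll1, which codes for lambda5, the constant-like partner of the Vpreb1 protein, had 2 probe sets that both lay above WT without overlap. Probe set 1420176_x_at read 138.8 and 136.3 in IRF4/8 DKO and 254.1 and 232.5 in IRF8 KO, against 118.6 and 76.6 in WT. Here the 3 genotypes were separate, with IRF8 KO highest and WT lowest. The fold over WT was 1.40 in IRF4/8 DKO (log2 fold change 0.48 ± 0.42 SE, limma adjusted p = 0.823) and 2.39 in IRF8 KO (1.26 ± 0.42 SE, limma adjusted p = 0.26). Probe set 1420177_at was dimmer and read 48.0 and 29.6 in IRF4/8 DKO and 44.2 and 47.95 in IRF8 KO, against 28.2 and 25.4 in WT. Its log2 fold changes were 0.38 and 0.60, in the same order, and its knockout genotypes overlapped. Neither probe set passed in any comparison. An x_at probe set can cross-hybridise with related sequences by Affymetrix's own naming, so the 2 probe sets are not equally specific.

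Vpreb3, which codes for a VpreB-like protein that binds newly made immunoglobulin chains, did not share this pattern. Its probe set 1422921_at read 44.46 and 44.57 in IRF4/8 DKO and 59.8 and 59.2 in IRF8 KO, while the WT arrays read 77.5 and 23.6. The WT arrays were the lowest and the highest of the 6, so both knockout genotypes lay inside their span. The log2 fold change was 0.005 ± 0.50 SE in IRF4/8 DKO and 0.35 ± 0.50 SE in IRF8 KO (limma adjusted p = 0.999 and 0.801). Without WT replicate 2 the signs turned, to -0.68 and -0.33.

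The signalling chains of the receptor showed small differences. Cd79a (1418830_at), the gene of Ig-alpha, read 62.9 and 60.8 in IRF4/8 DKO and 53.3 and 37.2 in IRF8 KO, against 71.9 and 66.3 in WT. All knockout arrays lay below both WT arrays, by 1.10-fold in IRF4/8 DKO (log2 fold change -0.14 ± 0.39 SE, limma adjusted p = 0.954) and 1.44-fold in IRF8 KO (-0.53 ± 0.39 SE, limma adjusted p = 0.601). After quantile normalization the IRF4/8 DKO value was 0.05 in place of -0.14. Cd79b (1417640_at), the gene of Ig-beta, read 290.9 and 656.4 in IRF4/8 DKO and 384.0 and 333.9 in IRF8 KO, against 301.8 and 327.1 in WT. A single array, IRF4/8 DKO replicate 2, stood apart, and the other 5 lay between 290.9 and 384.0. The log2 fold change was 0.47 ± 0.48 SE in IRF4/8 DKO (-0.11 without that array) and 0.18 ± 0.48 SE in IRF8 KO (limma adjusted p = 0.849 and 0.902).

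Blnk, the adaptor gene, was near the bottom of the scale and was not tested. It read 12.6 and 11.9 in IRF4/8 DKO and 32.5 and 13.3 in IRF8 KO, against 6.26 and 6.54 in WT. The order of the genotype means was that of Vpreb1 and Igll1, but only 1 array, IRF8 KO replicate 1, exceeded its 40th percentile.

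Transcripts of the B-lineage transcription factors were low in all genotypes. The brightest Ebf1 probe set, 1439789_at, read 38.5 and 15.1 in IRF4/8 DKO and 56.1 and 69.8 in IRF8 KO, against 53.95 and 30.1 in WT. IRF8 KO was highest, and IRF4/8 DKO and WT overlapped. Probe set 1416302_at read 38.8 and 22.7 in IRF4/8 DKO and 33.1 and 26.9 in IRF8 KO, against 29.8 and 13.96 in WT, with all genotypes overlapping. The probe sets lay on opposite sides of WT in IRF4/8 DKO, at log2 fold changes of -0.53 ± 0.46 SE and 0.36 ± 0.42 SE, and on the same side in IRF8 KO, at 0.52 ± 0.46 SE and 0.36 ± 0.42 SE (limma adjusted p from 0.672 to 0.868). The other 3 Ebf1 probe sets stayed at or below 14.7 on every array and were not tested.

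Pax5, whose protein commits cells to the B lineage, had 2 probe sets, neither tested. Probe set 1421765_at read 1.0 on both IRF4/8 DKO arrays and 1.0 and 0.88 in IRF8 KO, against 6.23 and 2.98 in WT. Probe set 1454401_at read 1.0 to 2.16 over the 6 arrays. These values lie under the pseudocount and the 40th percentile on every array, so their order carries no comparison.

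The recombination genes split. Rag1 (1450680_at) read 7.30 and 17.0 in IRF4/8 DKO and 5.17 and 1.35 in IRF8 KO, against 7.49 and 1.15 in WT, below the 40th percentile on every array, and was not tested. Dntt was above it on every array with all 3 of its probe sets. Probe set 1449757_x_at read 29.5 and 35.95 in IRF4/8 DKO and 296.5 and 86.9 in IRF8 KO, against 149.6 and 64.3 in WT. Probe set 1420166_at read 28.9 and 43.5 in IRF4/8 DKO and 221.8 and 84.6 in IRF8 KO, against 95.7 and 45.9 in WT. In both, IRF4/8 DKO lay lowest, and IRF8 KO and WT overlapped. Probe set 1450545_a_at read 51.9 and 48.4 in IRF4/8 DKO and 94.7 and 89.7 in IRF8 KO, against 49.4 and 45.0 in WT. By this one, IRF8 KO stood above the other genotypes, which overlapped.

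The Dntt probe sets therefore placed IRF4/8 DKO differently against WT, at log2 fold changes of -1.34 ± 0.61 SE, -0.75 ± 0.55 SE and 0.07 ± 0.38 SE in the order above (limma adjusted p = 0.576, 0.779 and 0.973). Against WT, IRF8 KO had 0.66 ± 0.61 SE, 0.94 ± 0.55 SE and 0.83 ± 0.38 SE (limma adjusted p = 0.683, 0.495 and 0.386). For the first 2 probe sets that difference was 2.04 between female arrays for both, and -0.72 and -0.16 between male arrays. These pairs also differed in age. The female was aged 12 weeks in IRF8 KO and 19 in WT, and the male 22 and 12, so sex and age were not tested apart. Without IRF8 KO replicate 1, the female, the first probe set gave -0.17. With age as a covariate it gave 0.90 (limma adjusted p = 0.348).

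Added loss of IRF4 was examined as IRF4/8 DKO against IRF8 KO, without WT arrays entering the difference. All 3 Dntt probe sets were lower in IRF4/8 DKO without overlap, by 4.01-fold, 3.22-fold and 1.69-fold (log2 fold change -2.004 ± 0.61 SE, -1.69 ± 0.55 SE and -0.76 ± 0.38 SE). None passed (limma adjusted p = 0.537, 0.539 and 0.618). The first value was -1.18 when IRF8 KO replicate 1 was left out and -2.83 when replicate 2 of that genotype was. The direction held within both sexes, with log2 differences of -1.28, -1.27 and -0.68 between male arrays and -2.72, -2.10 and -0.84 between female arrays. These pairs also differed in age, at 16 weeks in IRF4/8 DKO against 22 in the IRF8 KO male and 12 in the IRF8 KO female. With age as a covariate, Dntt 1449757_x_at gave -2.17 (limma adjusted p = 0.26). The Igll1 probe set 1420176_x_at lay 1.71-fold lower (-0.78 ± 0.42 SE, limma adjusted p = 0.645) and Ebf1 1439789_at 2.07-fold lower (-1.05 ± 0.46 SE, limma adjusted p = 0.585), both without overlap. The other tested probe sets of these genes overlapped, at -0.22 ± 0.39 SE for Igll1 1420177_at and 0.003 ± 0.42 SE for Ebf1 1416302_at. The mean over both Ebf1 probe sets was -0.52. Vpreb1 differed by -0.27 ± 0.43 SE (95% interval -1.25 to 0.71, limma adjusted p = 0.875). That interval holds differences of more than 2-fold lower, and the sign turned without IRF8 KO replicate 2 (0.09) or IRF4/8 DKO replicate 1 (0.02). Probe set 1422416_s_at, shared by Vpreb2 and Vpreb1, lay lower without overlap (-0.995 ± 0.46 SE, limma adjusted p = 0.593). Cd79a was the only kept member probe set above IRF8 KO without overlap (0.39 ± 0.39 SE, limma adjusted p = 0.794). Cd79b had 0.28 ± 0.48 SE, and -0.29 without IRF4/8 DKO replicate 2.

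**Figure D2:**
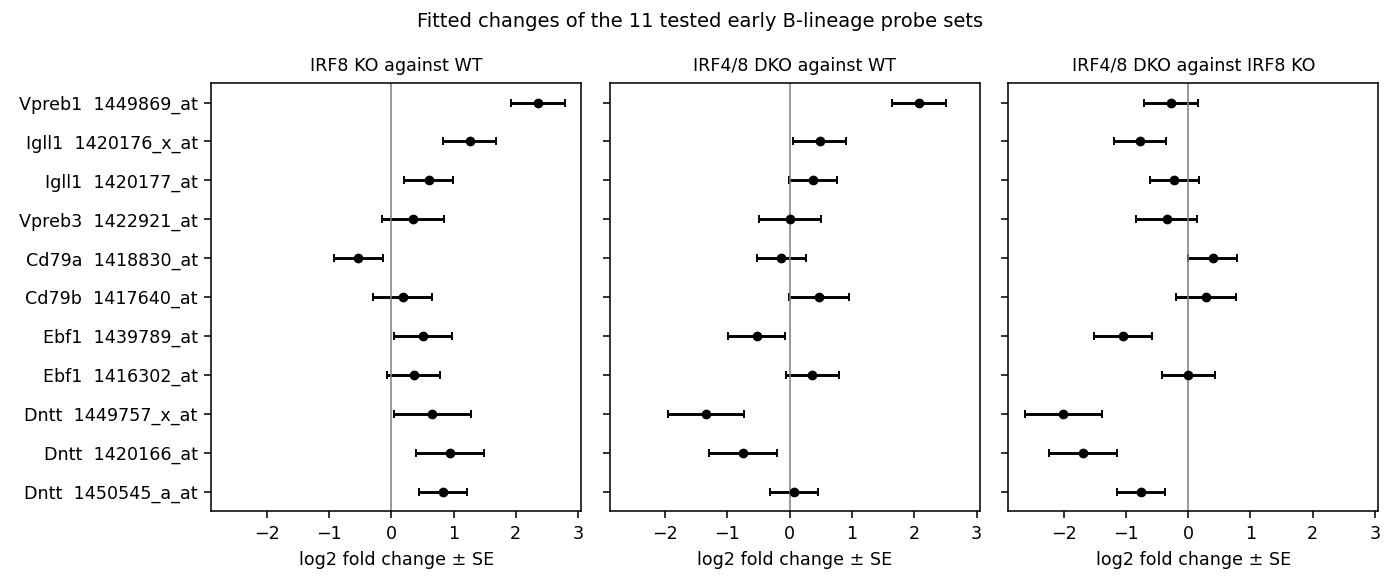
Log2 fold change with its SE from the limma fit for the 11 tested member probe sets, in a panel per comparison. Vpreb1 lies farthest right in both comparisons with WT (2.08 in IRF4/8 DKO, 2.35 in IRF8 KO), and 2 of the 3 Dntt probe sets lie farthest left in IRF4/8 DKO against IRF8 KO (-2.004 and -1.69). Points share arrays between panels.

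Over the kept member probe sets, limma called 0 of 11 in each comparison. The test called 0.299% of all kept probe sets in IRF4/8 DKO against WT (0.0907% higher and 0.208% lower), 0.0302% in IRF8 KO against WT (0.0101% higher and 0.0201% lower) and 0% in IRF4/8 DKO against IRF8 KO, so few calls were made anywhere. At an unadjusted p under 0.05 there was 1 member probe set in IRF4/8 DKO against WT (Vpreb1, with 9.05% of all kept probe sets), 2 in IRF8 KO against WT (Vpreb1 and Igll1, with 13.5%) and 2 in IRF4/8 DKO against IRF8 KO (both Dntt, with 8.52%).

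Without overlap between genotypes, 3 of 11 member probe sets lay above WT in IRF4/8 DKO (Vpreb1 and both of Igll1), against 18.3% of all kept probe sets, and 3 lay below, against 25.3%. In IRF8 KO 6 lay above WT, against 19.8% of all, and 1 below, against 25.9%. The 6 were Vpreb1, both of Igll1, Cd79b, Ebf1 1439789_at and Dntt 1450545_a_at. In IRF4/8 DKO against IRF8 KO 1 lay above, against 19.3% of all, and 6 below, against 17.3%. Both comparisons that involve IRF8 KO share its arrays, so the 6 above WT and the 6 below IRF8 KO are not separate evidence. Taking each of the 7 tested genes by its brightest probe set, the median log2 fold change was 0.005 in IRF4/8 DKO against WT, 0.52 in IRF8 KO against WT and -0.35 in IRF4/8 DKO against IRF8 KO. The medians of all 13267 genes were 0.03, 0.04 and -0.01 in these comparisons.

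Igll1 and Vpreb1 are neighbours on mouse chromosome 16, with 0 protein-coding genes between them in RefSeq (GRCm38.p6). Genes on either side, looked up after the members' values were seen, were set beside them. Of the 4 on each side, 4 of 8 in all had a kept probe set, namely Fgd4, Top3b, a topoisomerase gene, the phosphatase gene Ppm1f, and Ypel1. Top3b, next to Vpreb1, read 625.0 and 1438 in IRF4/8 DKO and 968.7 and 3538 in IRF8 KO, against 653.0 and 495.6 in WT. Its IRF8 KO arrays lay above WT and its IRF4/8 DKO arrays overlapped WT (log2 fold change 0.73 ± 0.62 SE in IRF4/8 DKO and 1.69 ± 0.62 SE in IRF8 KO, limma adjusted p = 0.816 and 0.297). Fgd4, on the side of Igll1, read 584.9 and 606.2 in IRF4/8 DKO and 838.7 and 776.4 in IRF8 KO, against 295.0 and 436.8 in WT. Its arrays lay above WT in both genotypes (0.71 ± 0.39 SE and 1.15 ± 0.39 SE, limma adjusted p = 0.671 and 0.266). The 4 neighbours ranged from -0.07 to 0.73 in IRF4/8 DKO and from 0.008 to 1.69 in IRF8 KO. All were below Vpreb1, but Top3b was above Igll1 in both genotypes and Fgd4 above Igll1 in IRF4/8 DKO. None passed the test.

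**Figure D3:**
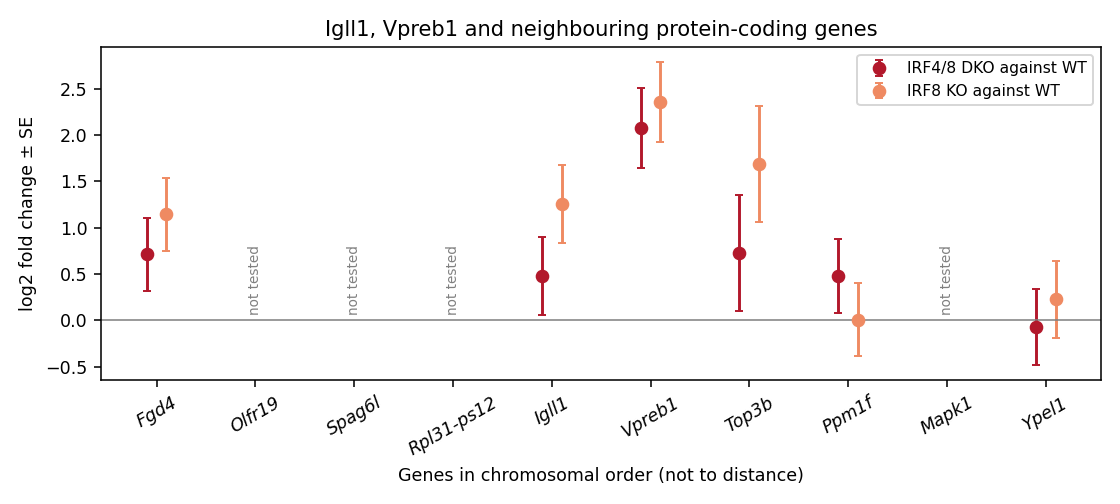
Log2 fold change against WT, with its SE, for Igll1, Vpreb1 and 4 protein-coding genes on either side, in chromosomal order without distances and by the brightest kept probe set. Vpreb1 is the highest point in IRF4/8 DKO (2.08) and in IRF8 KO (2.35), followed by Top3b (0.73 and 1.69), while Igll1 (0.48 and 1.26), Fgd4 (0.71 and 1.15), Ppm1f (0.48 and 0.008) and Ypel1 (-0.07 and 0.23) lie lower.

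Likeness to other genes was measured as the root mean square difference of log2 values over the 6 arrays, each gene centred on its own mean, among 13260 other genes. This is a description of 6 arrays that share their genotypes. The profile closest to Vpreb1 was that of Tmem179b, a transmembrane protein gene, at 0.11. Tmem179b read 388.7 and 626.7 in IRF4/8 DKO and 424.4 and 813.0 in IRF8 KO, against 92.5 and 113.0 in WT. Next came Lyst, a regulator of lysosomal trafficking, at 0.17, and Rtp4, an interferon-inducible receptor transporter gene, at 0.28. For Dntt (1449757_x_at) the closest were Hmga2, a chromatin architectural protein gene, at 0.31, Rnd2 at 0.33, and Gpx7 at 0.37. Hmga2 read 41.0 and 26.3 in IRF4/8 DKO and 200.2 and 98.5 in IRF8 KO, against 156.2 and 69.3 in WT. For Ebf1 (1439789_at), which varied less (SD 0.60 on the log2 scale, against 1.19 for Vpreb1 and 1.11 for Dntt), they were Zfyve16, Hpd and Dph6 at 0.09 to 0.12.

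Other genes of early B development gave few differences of the size of Vpreb1. Of 22 genes of the B cell receptor and its signalling, 16 had a probe set with a single symbol here and 13 were tested by 32 probe sets. In each of the 3 comparisons 0 passed the limma test in either direction, with 6 at an unadjusted p under 0.05 in IRF4/8 DKO against WT, 4 in IRF8 KO against WT and 3 in IRF4/8 DKO against IRF8 KO. The median was -0.10 in IRF4/8 DKO and 0.21 in IRF8 KO against WT (log2). Cd24a, the gene of the heat-stable antigen of early B cells and many other blood cells, had the lowest adjusted p in IRF4/8 DKO. Its probe set 1416034_at read 3081 and 2033 in IRF4/8 DKO and 4317 and 4266 in IRF8 KO, against 6436 and 6948 in WT. The 3 genotypes were separate, at log2 fold changes from WT of -1.41 ± 0.24 SE in IRF4/8 DKO (limma adjusted p = 0.0644) and -0.64 ± 0.24 SE in IRF8 KO (0.31). The kinase gene Fyn lay lower in IRF4/8 DKO (-1.45 ± 0.50 SE, limma adjusted p = 0.397). Ighm, the heavy chain gene, had 11 probe sets here that detect different parts of a multigene locus and are uncertain for that reason. Its probe set 1425324_x_at lay lower in IRF8 KO (-1.43 ± 0.39 SE, limma adjusted p = 0.18), while the brightest, 1427329_a_at, lay above WT without overlap (1.97 ± 0.70 SE, 0.279), as did 1427351_s_at (0.92 ± 0.76 SE, 0.638).

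Of 19 transcription factor genes of early B development, 18 were tested by 52 probe sets. None passed in any comparison, with 8, 8 and 5 at an unadjusted p under 0.05 in the order above, and medians of -0.11 in IRF4/8 DKO and 0.04 in IRF8 KO against WT. Ikzf3, the gene of the lymphoid factor Aiolos, was tested by 1436649_at, which read 19.1 and 15.6 in IRF4/8 DKO and 14.5 and 5.87 in IRF8 KO, against 87.1 and 119.5 in WT. Pou2f2, the gene of the octamer factor OCT2, read 41.7 and 43.4 in IRF4/8 DKO and 18.0 and 51.1 in IRF8 KO, against 243.6 and 279.3 in WT by 1443885_at. Both lay below WT on all 4 knockout arrays. Ikzf3 was under the 40th percentile on these 4 arrays and was kept through the WT arrays alone, so its difference follows from the filter and supports nothing. Log2 fold changes in IRF4/8 DKO were -2.02 ± 0.40 SE for Ikzf3 and -2.36 ± 0.47 SE for Pou2f2 (limma adjusted p = 0.11 and 0.109). In IRF8 KO they were -2.48 ± 0.40 SE and -2.70 ± 0.47 SE (0.0823 and 0.0896). The other tested Pou2f2 probe set differed from WT by -0.17 and 0.02. Between the knockout genotypes the lowest adjusted p were those of Irf4 itself (1.75 ± 0.39 SE, limma adjusted p = 0.482) and Foxo1, an activator of the Rag genes (-1.25 ± 0.46 SE, 0.557). The Foxo1 value is that of 1416982_at, and its other probe sets overlapped between these genotypes. The brightest, 1416983_s_at, read 192.2 and 245.25 in IRF4/8 DKO and 530.1 and 125.5 in IRF8 KO. Probe set 1456529_at had the higher mean in IRF4/8 DKO (59.0, against 51.3 in IRF8 KO).

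Of 14 genes of V(D)J recombination and end joining, 12 had a probe set with a single symbol and 11 were tested by 18 probe sets. None passed, with 0, 1 and 3 at an unadjusted p under 0.05, and medians of -0.08 in IRF4/8 DKO and 0.001 in IRF8 KO against WT. Xrcc6, which codes for Ku70 of the end-joining machinery, read 829.6 and 839.3 in IRF4/8 DKO and 495.2 and 442.2 in IRF8 KO, against 866.0 and 1270 in WT. IRF8 KO lay lowest (log2 fold change -1.15 ± 0.37 SE against WT, limma adjusted p = 0.248). The polymerase gene Poll had -0.80 ± 0.41 SE in IRF8 KO (0.433) and lay above IRF8 KO in IRF4/8 DKO (1.002 ± 0.41 SE, 0.566), as did the ligase partner gene Xrcc4 (1.02 ± 0.43 SE, 0.579). Against WT, IRF4/8 DKO had 0.67 ± 0.43 SE for Xrcc4 and 0.65 ± 0.44 SE for probe set 1426957_at of Trp53bp1, a DNA break response gene (0.733 and 0.756). The 3 other tested Trp53bp1 probe sets were on the opposite side of WT, the brightest, 1426956_a_at, at -0.28 ± 0.33 SE.

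Of 11 lymphoid progenitor genes, 10 had a probe set with a single symbol and 9 were tested by 21 probe sets. None passed, with 8, 6 and 1 at an unadjusted p under 0.05, and medians of 0.15 in IRF4/8 DKO and 0.65 in IRF8 KO against WT. Cnn3, a calponin gene, had the lowest adjusted p. Its probe set 1436836_x_at read 1530 and 2012 in IRF4/8 DKO and 1283 and 1706 in IRF8 KO, against 403.3 and 260.7 in WT. All knockout arrays lay above WT, at log2 fold changes of 2.40 ± 0.38 SE in IRF4/8 DKO (limma adjusted p = 0.0506) and 2.15 ± 0.38 SE in IRF8 KO (0.0916). Its 4 other tested probe sets also lay above WT without overlap in both genotypes, 1426724_at least (0.60 in IRF4/8 DKO and 0.52 in IRF8 KO). That was the only tested Cnn3 probe set that is not an x_at, so the larger changes all came from probe sets that can cross-hybridise. Notch1, the receptor gene that directs progenitors to the T lineage, read 867.9 and 669.0 in IRF4/8 DKO and 1867 and 837.0 in IRF8 KO, against 282.5 and 296.3 in WT by 1418633_at (1.37 ± 0.46 SE and 2.07 ± 0.46 SE, limma adjusted p = 0.38 and 0.122). Tyrobp, a signalling adaptor gene of myeloid and NK cells, had 0.93 ± 0.20 SE in IRF4/8 DKO (0.125). Il7r, whose protein was gated out in the sort, read 4.31 and 12.3 in IRF4/8 DKO and 27.1 and 21.6 in IRF8 KO, against 6.04 and 26.1 in WT by its only tested probe set (-0.92 ± 0.47 SE in IRF4/8 DKO against IRF8 KO, limma adjusted p = 0.621).

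**Figure D4:**
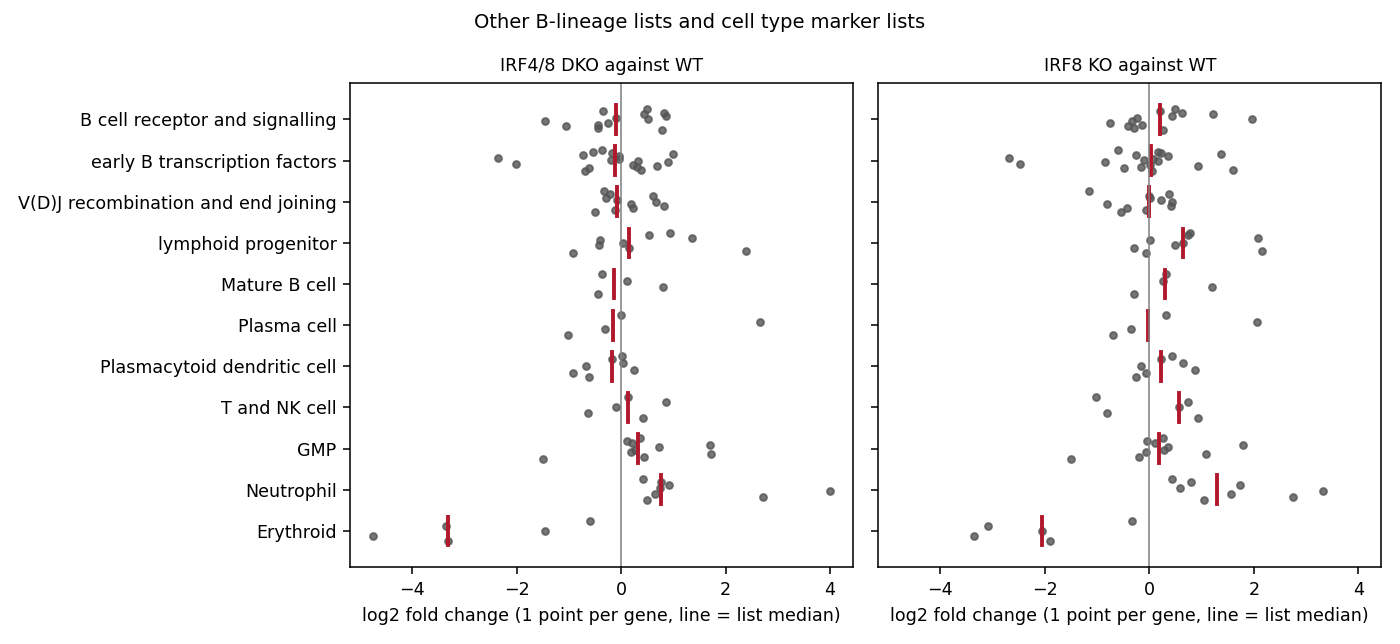
Log2 fold change against WT of each tested gene (points, by its brightest kept probe set) in the 4 B-lineage lists and 7 cell type marker lists, with the list median as a red line. The B-lineage medians lie between -0.11 and 0.65, while the erythroid median is -3.32 in IRF4/8 DKO and -2.05 in IRF8 KO, and the neutrophil median 0.76 and 1.30.

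Markers of other cell types were read in the same arrays. Of 8 mature B cell markers, 6 had a probe set with a single symbol and 4 were tested. Their summed intensity was 821.5 and 1564 in IRF4/8 DKO and 982.7 and 2282 in IRF8 KO, against 870.0 and 657.1 in WT. Most of it came from Cd37, a tetraspanin gene of many white blood cells, which read 626.6 and 1387 in IRF4/8 DKO and 741.2 and 2050 in IRF8 KO, against 635.2 and 443.2 in WT. Ms4a1, the gene of CD20, stayed at or below 21.2 on all arrays with both probe sets and was not tested. Both sums in IRF8 KO lay above both WT sums, as for Vpreb1, and those in IRF4/8 DKO overlapped WT.

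Plasma cell markers (5 of 5 measured) summed to 9260 and 12283 in IRF4/8 DKO and 9721 and 14365 in IRF8 KO, against 8859 and 8183 in WT, mostly from Xbp1, a gene of secretory cells in general. Members went both ways. Jchain, the gene of the immunoglobulin joining chain, averaged 30.3 in IRF4/8 DKO and 40.9 in IRF8 KO, against 73.3 in WT. Sdc1, the gene of CD138, averaged 562.8 in IRF4/8 DKO and 373.7 in IRF8 KO, against 93.7 in WT by its brightest probe set, 1437279_x_at (limma adjusted p = 0.13 and 0.182). Plasmacytoid dendritic cell markers (8 of 9 measured) summed to 4147 and 3197 in IRF4/8 DKO and 4449 and 5024 in IRF8 KO, against 4687 and 4147 in WT, and their defining gene Siglech stayed at or below 4.07 on every array. T and NK cell markers (9 of 11) summed to 1633 and 2386 in IRF4/8 DKO and 1646 and 2050 in IRF8 KO, against 1119 and 1387 in WT. Every knockout sum lay above both WT sums. Most of each came from Nkg7, which read 1181 and 2023 in IRF4/8 DKO and 1200 and 1710 in IRF8 KO, against 705.8 and 1023 in WT. Cd3e stayed at or below 21.0 everywhere. Neutrophil markers (8 of 8) summed to 20800 and 45761 in IRF4/8 DKO and 25490 and 47620 in IRF8 KO, against 12267 and 30108 in WT, so that the sums overlapped. The log2 fold changes of all 8 genes were above 0 in both genotypes, and 1 of 9 probe sets passed in IRF4/8 DKO and 0 in IRF8 KO. The passing probe set was that of Mmp8. It read 182.3 and 594.9 in IRF4/8 DKO, against 11.7 and 10.2 in WT, under the 40th percentile of both WT arrays. Mmp8 was thus kept through the knockout arrays alone, so its difference follows from the filter and supports nothing. Erythroid markers (6 of 8) summed to 245.4 and 158.6 in IRF4/8 DKO and 809.4 and 230.8 in IRF8 KO, against 5218 and 2102 in WT, without overlap, and 0 of 5 probe sets passed in either genotype (4 at an unadjusted p under 0.05 in each). Gata1, at 13.1 or less on every knockout array, was kept through the WT arrays alone, so its difference supports nothing either. GMP markers (10 of 10) summed to 56201 and 73406 in IRF4/8 DKO and 51440 and 59688 in IRF8 KO, against 45694 and 53195 in WT. The part of these shifts in the values of Vpreb1 and Igll1 was not tested.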

How the data were processed

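RNA of sorted GMPs from 6 mice was measured on 6 arrays, 2 per genotype, grouped by the sample titles. The authors deposited linear intensity values per probe set, normalized and then computed in dChip 1.3 from its model of perfect-match minus mismatch probes, as the series' design text says. How the normalization was done, its baseline array and the handling of low values are stated in no source used here. All values were above 0 (0.69 to 16563). The number of arrays limits the precision, and p-values measure only the spread between these mice.

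Values were transformed to log2(value + 10.5), the 25th percentile of all values, filtered at the 40th percentile of the array on at least 2 arrays (29783 of 45037 probe sets kept), and fitted with limma 3.58.1 in R 4.3.3 with a variance trend and no covariates (3 residual and 5.84 prior degrees of freedom). Symbols were read from GEO's annotation of the array and brought up to RefSeq (GRCm38.p6) by gene identifier. A single symbol was found for 34945 probe sets, several for 932 and none for 9160, and only the first were named. The brightest kept probe set, by mean log2 value, stood for each gene. Named were all members and the 3 genes most like each of the 3 most variable members. Also named were the 2 genes of each other B-lineage list with the lowest adjusted p per comparison, by any kept probe set. The members and lists were chosen with earlier results of these data known, and neighbouring genes after values were seen. The fit was tested on simulated data. Alternatives were other pseudocounts (3.9 and 39.23), filters, normalizations, variance models, covariates, the mean over probe sets of a gene, and leaving out each array.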

Additional observations from a re-analysis of the deposited data

Results flagged for a closer look

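The probe set annotated to both Vpreb2 and Vpreb1 is outside the members and was singled out because it exceeded WT on all 4 knockout arrays. Its mean intensity was 85.1 ± 2.16 in IRF4/8 DKO and 190.3 ± 90.4 in IRF8 KO, against 49.4 ± 6.77 in WT (SD, n = 2 each), and it passed the limma test in neither comparison with WT.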

How the results depend on the processing

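Each result was recomputed under 18 alternatives, except that Vpreb3, Cd79a and Ebf1 had 17. The filter at the 60th percentile left out the probe sets that stood for these genes. The number of early B-lineage probe sets that passed was 0 in the report. It was 1, Vpreb1, in IRF4/8 DKO against WT when only the genotypes compared were fitted. That fit called 476 of all 29783 probe sets, against 89 in the report. With replicate number as a block it was 1 in IRF8 KO against WT (Vpreb1, limma adjusted p = 0.043) and 0 in the other comparisons. In IRF8 KO against WT that block called 209 of all probe sets, against 9 in the report. The log2 fold change of Vpreb1 was unchanged in these fits (2.08 and 2.35), so its passing went with a general rise in calls. Fits that left out 1 array are not counted here. The labels give shared numbers but no shared litter or day. Same-numbered arrays deviated together with r of 0.041 to 0.211. A low r cannot exclude a shared batch, so whether the numbers pair the mice is not known. Sums of neutrophil, GMP, and T and NK cell markers were higher in replicate 2 of every genotype, and erythroid sums lower. The sums of the other marker lists varied in direction between genotypes. With sex as a block, Vpreb1 had a limma adjusted p of 0.255 in IRF4/8 DKO and 0.203 in IRF8 KO against WT. With age as a covariate these were 0.0833 and 0.0654, at log2 fold changes of 2.06 and 2.28.

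Vpreb1, Igll1 and Ebf1 had the same sign against WT under every alternative run, but with values near 0 for Ebf1 in IRF4/8 DKO (-0.063 without IRF4/8 DKO replicate 2 and -0.084 as the mean over probe sets). Igll1 ranged from 0.20 to 0.77 in IRF4/8 DKO and from 0.93 to 1.54 in IRF8 KO. Log2 fold changes turned for Vpreb3 with the larger pseudocount (-0.033) and for Cd79a after quantile normalization (0.053), both in IRF4/8 DKO against WT. Leaving out 1 array gave ranges that include 0, in IRF4/8 DKO against WT from -0.68 to 0.69 for Vpreb3 and from -0.11 to 1.04 for Cd79b. In IRF8 KO against WT they were -0.33 to 1.04 for Vpreb3 and -0.17 to 1.49 for Dntt, and in IRF4/8 DKO against IRF8 KO -0.63 to 0.088 for Vpreb1 and -0.29 to 0.86 for Cd79b. The cause was not tested. Over all probe sets the count of calls ranged from 0 to 484 in IRF4/8 DKO against WT (89 in the report), 0 to 1090 in IRF8 KO against WT (9) and 0 to 200 in IRF4/8 DKO against IRF8 KO (0). The highest counts in comparisons with IRF8 KO came without its replicate 1, and without either WT array the counts against WT were 0. A fit without 1 array leaves a genotype with a lone sample, assumed to vary like the others. Signal near background limits Blnk, Pax5 and Rag1.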

Other observations

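Immunoglobulin heavy chain probe sets gave single bright arrays, a point chosen after their values were seen. Ighm probe set 1427351_s_at read 285.9 and 2002 in IRF4/8 DKO and 585.1 and 538.5 in IRF8 KO, against 332.7 and 254.2 in WT, so that IRF4/8 DKO replicate 2, the array with the highest Cd79b (656.4), was also highest here. Ighm probe set 1427329_a_at read 352.0 and 499.9 in IRF4/8 DKO and 509.7 and 2663 in IRF8 KO, against 231.7 and 363.6 in WT, with IRF8 KO replicate 2 highest, the array with the highest Vpreb1 (1275). The bright array thus differed between the 2 probe sets. Rag2, the partner of Rag1, was not tested and read 8.29 and 3.94 in IRF4/8 DKO and 41.6 and 21.7 in IRF8 KO, against 1.14 and 11.6 in WT, and 1 of its arrays, IRF8 KO replicate 1, lay above the 40th percentile.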
